A study of Oryza sativa with 10 samples.

Results

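The genes described here are those whose deposited description names a terpenoid enzyme in roots of rice (Oryza sativa, japonica cultivar Illmi). They were the loci with at least 1 transcript described by any of the words terpen, kaurene, copalyl, momilactone, squalene or cycloartenol, in any case. The rule used no measured value. It found 66 transcripts of 58 loci, among 37869 loci in all, and no description held the word momilactone. For each locus the FPKM of its transcripts, read fragments scaled by transcript length and by library size, were added up in each library.

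The 10 libraries were made from roots of 20-day-old seedlings and fell into 5 groups of 2 biological replicates. The control group was nontransgenic (NT). The 4 transgenic groups were RCc3:myc-OsNAC5, RCc3:OsNAC6-myc, RCc3:myc-OsNAC9 and RCc3:OsNAC10-myc, called OsNAC5, OsNAC6, OsNAC9 and OsNAC10 below. In each of them 1 OsNAC transcription factor gene with a MYC epitope tag was driven by RCc3, a promoter chosen to act in roots. Lines with much tagged protein had been picked from several per construct, and how many lines stood behind the 2 libraries of a group was not stated. A comparison with NT was therefore one between plant lines. In the methods, seedlings of all groups stood under water for 3 days before the roots were taken, while the labels give normal growth.

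Terpenoids are built from isopentenyl diphosphate, which plants make by the mevalonate route in the cytosol and by the methylerythritol phosphate (MEP) route in plastids. In the diterpene branch, copalyl diphosphate synthases fold geranylgeranyl diphosphate into ent- or syn-copalyl diphosphate. Kaurene synthase and kaurene oxidase carry the ent form towards gibberellins, and rice also has related synthases and cytochrome P450 enzymes that make diterpenoid phytoalexins, the momilactones and phytocassanes, from both forms. In the triterpene branch, squalene synthase, squalene monooxygenase and cycloartenol synthase lead to the membrane sterols.

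The 58 loci were sorted by the words of their descriptions into 2 copalyl diphosphate synthase loci, 5 kaurene synthase loci, 6 kaurene oxidase loci, 26 terpene or terpenoid synthase loci, 3 loci with a toroid domain, and 16 triterpene and sterol loci. The toroid domain is shared with protein prenyltransferases, so those 3 loci need not be terpenoid enzymes. The word rule also missed diterpene enzymes, among them Os04g0179700, described as syn-pimara-7,15-diene synthase. Most members were weakly expressed. The highest library stayed under 1 FPKM for 27 loci, lay between 1 and 10 FPKM for 19, and reached 10 FPKM or more for 12. Together the members took 0.0454% to 0.0616% of the total FPKM of a library.

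Total FPKM ranged from 730218 to 789304 per library. The files hold no read numbers, and depth relative to NT replicate 1, read from the lowest values, ranged from 0.933 to 1.57. The replicates of OsNAC6 were the least alike (median absolute log2 difference 0.204 over loci of at least 200 FPKM) and those of NT the most alike (0.044). Each OsNAC locus had its highest level in the line named for it, at 146 and 154 FPKM for OsNAC5 (46.6 and 45.3 in NT), 129 and 123 for OsNAC6 (96.5 and 96.4 in NT), 413 and 558 for OsNAC9 (50.1 and 49.8 in NT), and 35.1 and 34.7 for OsNAC10 (27.4 and 27.1 in NT). The rises of the OsNAC6 and OsNAC10 loci in their own lines were not called by the limma rule given below (adjusted p under 0.05 and 1.5 fold). Of 5 tested loci, the OsNAC loci and the root marker RCc3, 0 were up-regulated in OsNAC6 and 0 in OsNAC10. In each of OsNAC5 and OsNAC9, 1 was up-regulated. Down-regulated were 0, 2, 1 and 2 of the 5 in OsNAC5, OsNAC6, OsNAC9 and OsNAC10. Without adjustment, limma gave p under 0.05 for 1 higher locus in OsNAC6 and 2 in OsNAC10. It did so for 2, 3, 3 and 3 lower loci in OsNAC5, OsNAC6, OsNAC9 and OsNAC10. RCc3 lay at 1660 FPKM or more in every library. Of 61 loci described as parts of the photosynthetic apparatus, 39 stayed under 1 FPKM in all libraries and the highest reached 15.5 FPKM.

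The summed levels of the synthase and oxidase loci were lower in all 4 lines than in NT, and those of the triterpene and sterol loci stayed near or above NT. These sums were not tested. The summed FPKM of the kaurene synthase loci was 16.0 ± 1.11 in NT (SD, n = 2) and 16.5%, 16.6%, 22.4% and 7.28% of that in OsNAC5, OsNAC6, OsNAC9 and OsNAC10. A single locus, Os02g0570400, made up 14.3 FPKM of that NT sum. The terpene synthase loci summed to 41.9 ± 3.24 in NT and to 21.4%, 17.8%, 28.5% and 15.6% of it in the same order of lines. Os02g0571100 made up 28.0 FPKM of that NT sum, and the 13 tested terpene synthase loci had median log2 differences of -0.10, -0.04, 0.06 and -0.31, with 9 of them not called in any line. The copalyl diphosphate synthase loci summed to 40.7 ± 3.19 in NT and to 42.9%, 35.0%, 41.5% and 14.8% of it. Of that NT sum, 38.3 FPKM came from Os04g0178300. The kaurene oxidase loci kept 50.7% to 57.0% of their NT sum of 30.3 ± 0.721. The triterpene and sterol loci summed to 317 ± 5.16 in NT and to between 99.2% of it in OsNAC9 and 122% in OsNAC10. RNA from whole roots was measured, so fewer cells of a type and less RNA per cell cannot be told apart.

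Of the 58 loci, 38 were above 0 FPKM in all 10 libraries and were tested, and 7 of the 20 untested loci were at 0 in every library. A locus was called where it had a limma adjusted p under 0.05 and differed by 1.5 fold or more on the log2(FPKM + 1) scale, a scale that understates changes of weak genes. In OsNAC5, 9 of the 38 members were down-regulated, where 2.78% of all 29915 tested loci were, and 1 was up-regulated, against 1.78% of all loci. In OsNAC6, 8 were down-regulated (7.07% of all loci) and 0 up-regulated (5.32%). In OsNAC9, 10 were down-regulated (4.91% of all loci) and 0 up-regulated (4.43%). In OsNAC10, 7 were down-regulated (9.86% of all loci) and 1 up-regulated (4.61%). By position alone, both libraries of a line lay below both NT libraries for 18 members in OsNAC5 (26.9% of all loci), 16 in OsNAC6 (30.1%), 19 in OsNAC9 (31.1%) and 17 in OsNAC10 (34.8%), and above them for 9 (32.7%), 6 (31.6%), 8 (34.9%) and 11 (39.3%). With a pseudocount of 0.1, 13 members were down-regulated in OsNAC10, and when loci averaging under 1 FPKM were removed, 4, 4, 5 and 4 were down-regulated in OsNAC5, OsNAC6, OsNAC9 and OsNAC10. Without adjustment or a fold threshold, limma gave p under 0.05 for 4 higher members in OsNAC6 and 5 in OsNAC9.

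The same 7 loci were down-regulated in all 4 lines, which held for 1.72% of all tested loci, and no member was up-regulated in all 4, against 0.428% of all loci. These 4 comparisons share the NT libraries. The median log2 difference of the 38 members was -0.09 for OsNAC5, -0.10 for OsNAC6, -0.10 for OsNAC9 and -0.01 for OsNAC10, and that of all tested loci lay between 0.01 and 0.02. All 7 belonged to the copalyl diphosphate synthase, kaurene synthase, kaurene oxidase and terpene synthase groups.

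**Figure D1:**
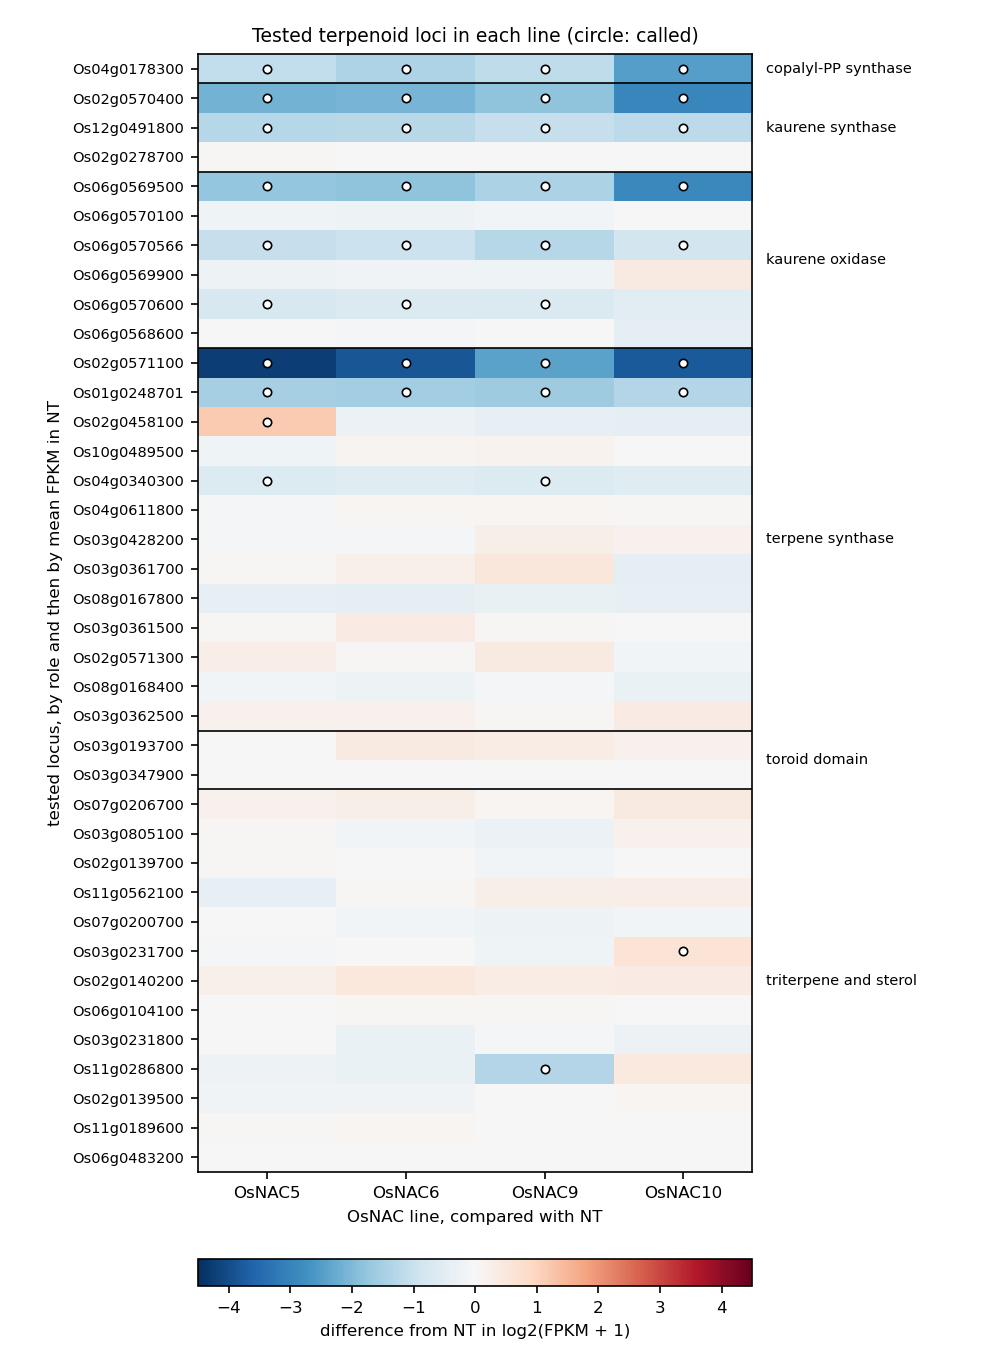
Differences from NT in log2(FPKM + 1) of the 38 tested loci (rows, by role and then by NT level) in the 4 lines (columns), with circles on calls. The circled blue cells, lowest at -4.24, sit in the copalyl diphosphate synthase, kaurene synthase, kaurene oxidase and terpene synthase rows apart from 1 cell in OsNAC9, and the triterpene and sterol rows hold 2 circles in all.

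Copalyl diphosphate synthases take the first cyclisation step of the diterpene branch. Os04g0178300 on chromosome 4, similar to syn-copalyl diphosphate synthase, was the most abundant locus of the branch. It had 36.6 and 40.0 FPKM in NT, against 17.7 and 17.1 for OsNAC5, 12.4 and 15.9 for OsNAC6, 18.1 and 15.5 for OsNAC9 and 5.65 and 6.29 for OsNAC10. All 8 line libraries lay below both NT libraries, and the OsNAC10 libraries below all others. The log2 differences were -1.09, -1.38, -1.15 and -2.49 (SE 0.127; adjusted p 0.00117, 0.000216, 0.000609 and 7.4e-06) in OsNAC5, OsNAC6, OsNAC9 and OsNAC10. OsNAC10 was also lower than each other line, with log2 differences of -1.40 from OsNAC5, -1.11 from OsNAC6 and -1.35 from OsNAC9 (adjusted p 0.000369, 0.00181 and 0.000329).

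Os02g0570900 on chromosome 2, similar to ent-copalyl diphosphate synthase 2, was left out of the main test because it was listed at 0 in 1 library each of OsNAC5 and OsNAC10. It had 1.88 and 3.04 FPKM in NT and at most 0.187 FPKM in any line library. When zeros were allowed, it was down-regulated in all 4 lines, with log2 differences of -1.70, -1.66, -1.54 and -1.69 (SE 0.156).

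Kaurene synthases cyclise the product of the preceding step. Os02g0570400 on chromosome 2, similar to ent-kaurene synthase 1A, had 13.6 and 15.1 FPKM in NT, against 2.70 and 2.35 for OsNAC5, 2.56 and 2.58 for OsNAC6, 3.27 and 3.38 for OsNAC9 and 1.03 and 0.980 for OsNAC10. No line library reached 4 FPKM. The log2 differences from NT were -2.12, -2.10, -1.83 and -2.93 (SE 0.105; adjusted p at most 1.57e-05), and those of OsNAC10 from OsNAC5, OsNAC6 and OsNAC9 were -0.81, -0.83 and -1.11 (adjusted p 0.00195, 0.00284 and 0.000322). Os12g0491800 on chromosome 12 carries the same description. It had 1.44 and 1.51 FPKM in NT and at most 0.214 FPKM in the lines, with log2 differences of -1.28, -1.24, -1.04 and -1.18 (SE 0.0684). The third tested locus, Os02g0278700, similar to kaurene synthase A, stayed under 0.1 FPKM in all libraries and was not called in any line.

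Kaurene oxidases are cytochrome P450 enzymes that oxidise the kaurene skeleton. All 6 loci of this description lay on chromosome 6 and all were tested, and 3, 3, 3 and 2 of them were down-regulated in OsNAC5, OsNAC6, OsNAC9 and OsNAC10. Os06g0569500, similar to ent-kaurene oxidase 1, had 13.5 and 14.5 FPKM in NT, against 3.66 and 3.26 for OsNAC5, 3.61 and 2.98 for OsNAC6, 4.52 and 4.67 for OsNAC9 and 0.967 and 1.01 for OsNAC10. Its log2 differences were -1.75, -1.81, -1.43 and -2.92 (SE 0.113; adjusted p at most 0.000102). OsNAC10 was again lower than each other line, at -1.16 from OsNAC5, -1.11 from OsNAC6 and -1.49 from OsNAC9 (adjusted p 0.000483, 0.00108 and 0.000101). The weaker Os06g0570566 had 1.40 and 2.00 FPKM in NT, while the lines had 0.0718 to 0.601, with differences of -1.02, -0.97, -1.28 and -0.82 (SE 0.113).

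A neighbour by locus number, Os06g0570100, is the locus described as ent-kaurene oxidase itself, the enzyme of gibberellin synthesis. It had 11.6 and 11.7 FPKM in NT, and its 8 line libraries ran from 8.95 to 12.3. Its log2 differences of -0.18, -0.23, -0.13 and 0.02 were not called, and their 95% intervals together ran from -0.52 to 0.31, so the changes of Os06g0569500 lay outside them. Of the other 3 loci, Os06g0570600 (1.17 and 0.540 FPKM in NT) was down-regulated in OsNAC5, OsNAC6 and OsNAC9, and Os06g0569900 and Os06g0568600 were not called in any line. These loci carry near-identical descriptions, sequences were not compared, and how reads shared between close copies were assigned was not stated.

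Terpene synthases make the carbon skeletons of mono-, sesqui- and diterpenes. Of the 26 loci, 13 were tested. Os02g0571100 on chromosome 2, described as a terpenoid synthase domain protein, had 26.2 and 29.9 FPKM in NT, against 0.597 and 0.470 for OsNAC5, 1.06 and 0.984 for OsNAC6, 3.78 and 5.09 for OsNAC9 and 1.54 and 0.739 for OsNAC10. On the log2(FPKM + 1) scale this was the widest change of any tested member, with differences of -4.24, -3.84, -2.42 and -3.78 (SE 0.191; adjusted p at most 9.98e-05). As a share of NT, the weaker Os12g0491800 fell further in OsNAC5 (1.43% against 1.90%) and Os01g0248701 in OsNAC9 (1.29% against 15.8%). In OsNAC10 neither did (6.36% and 12.5% against 4.07%). For Os02g0571100, OsNAC9 kept the most. OsNAC9 was higher than OsNAC5 by 1.82 and than OsNAC6 by 1.41, and OsNAC10 against OsNAC9 gave -1.36 (adjusted p 0.00141, 0.00543 and 0.00258).

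Os01g0248701 on chromosome 1, with the same description, had 2.25 and 2.05 FPKM in NT and at most 0.303 FPKM in the lines. Its log2 differences were -1.48, -1.56, -1.62 and -1.31 (SE 0.0612). Os07g0218200 on chromosome 7, similar to terpene synthase 7, had 3.79 and 4.26 FPKM in NT and was listed at 0 in both libraries of OsNAC5 and of OsNAC6. It had 0.308 and 0.273 FPKM in OsNAC9, and 0.0159 and 0 in OsNAC10. Os02g0568700, a terpene synthase-like domain protein, had 0.989 and 1.05 FPKM in NT and at most 0.282 FPKM in the lines. Both were untested because of zeros, and with zeros allowed both were down-regulated in all 4 lines.

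Os02g0458100 on chromosome 2, similar to sesquiterpene cyclase, moved the other way in 1 line. It had 1.16 and 0.935 FPKM in NT, against 3.61 and 3.70 for OsNAC5, 0.655 and 0.774 for OsNAC6, 0.544 and 0.610 for OsNAC9 and 0.486 and 0.499 for OsNAC10. The OsNAC5 libraries lay above all others. The difference of 1.19 (SE 0.0861, adjusted p 7.37e-05) was called in OsNAC5, and those of -0.26, -0.38 and -0.45 in the other lines were short of 1.5 fold. With a pseudocount of 0.1 the locus was called down-regulated in OsNAC9 (-0.76) and OsNAC10 (-0.95). The differences of OsNAC6, OsNAC9 and OsNAC10 from OsNAC5 were -1.44, -1.56 and -1.64. Of the remaining 10 tested terpene synthase loci, Os04g0340300 (0.754 and 1.02 FPKM in NT) was down-regulated in OsNAC5 and OsNAC9, and 9 were not called in any line.

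**Figure D2:**
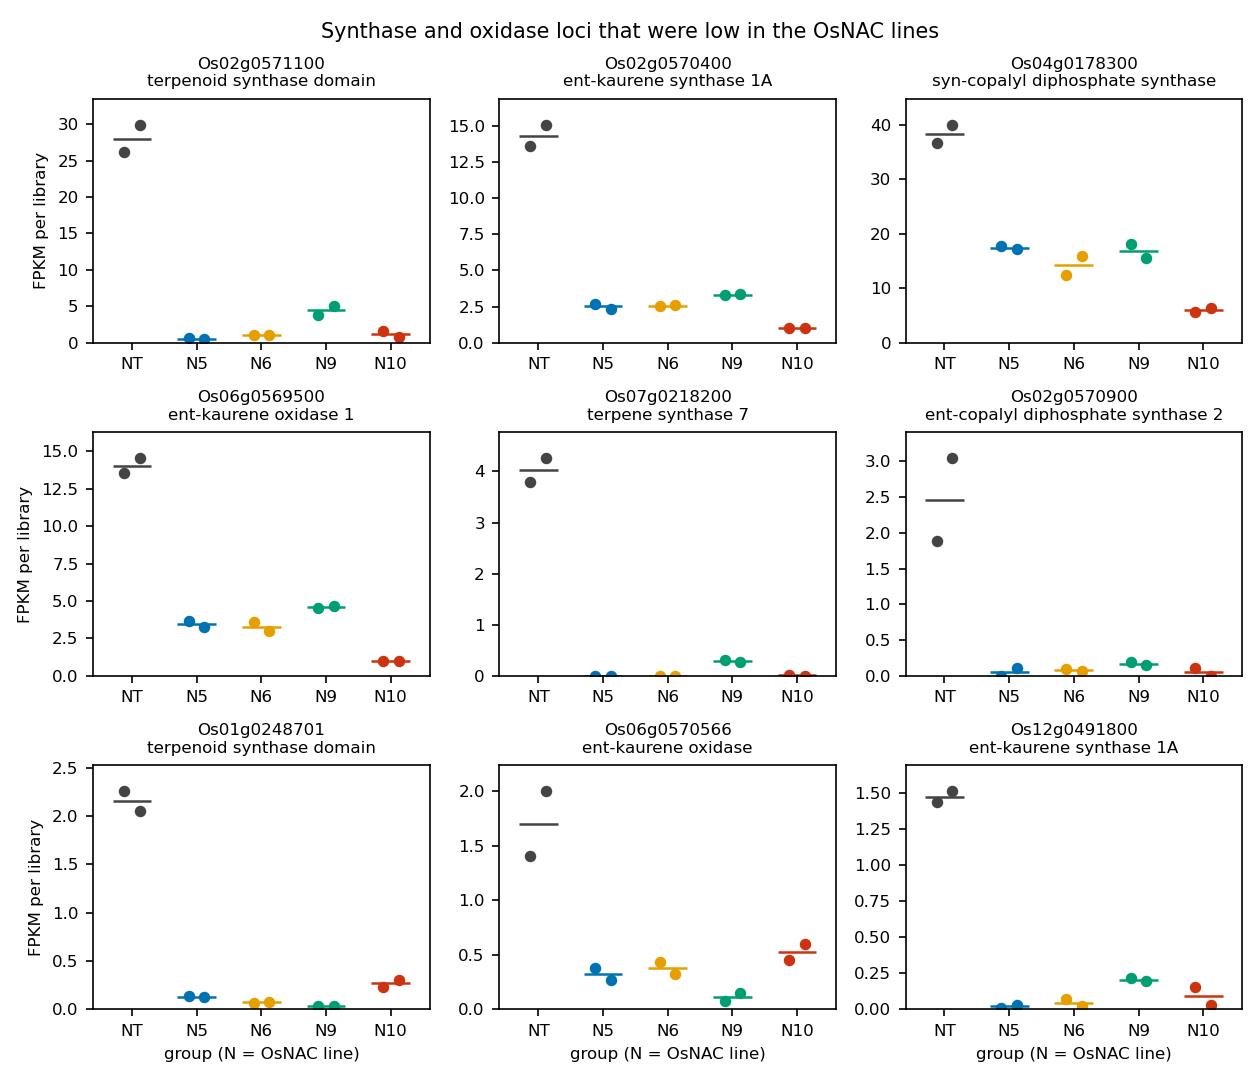
FPKM per library (points) and group mean (bars) of 9 synthase and oxidase loci in NT and the lines N5, N6, N9 and N10 (OsNAC5, OsNAC6, OsNAC9, OsNAC10), on linear axes from 0. Every line library lies below both NT libraries in all panels; for Os02g0570400 and Os06g0569500 the OsNAC10 points, near 1 FPKM, are the lowest.

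Compared pairwise, the lines also differed from each other in these members. Of the 38 tested, 5 were lower in OsNAC10 than in OsNAC9 (5.47% of all tested loci) and 3 higher (2.38%), while 0 were higher and 1 was lower in OsNAC6 than in OsNAC5 (1.28% and 1.75% of all loci). OsNAC10 against OsNAC5 gave 4 higher (2% of all loci) and 4 lower (5.74%), and OsNAC10 against OsNAC6 gave 2 higher (1.34%) and 4 lower (2.82%). OsNAC9 against OsNAC5 gave 2 higher (1.61%) and 2 lower (1.28%), and OsNAC9 against OsNAC6 gave 1 of each (1.51% and 0.772%).

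Several of the lowered members are neighbours by locus number on chromosome 2. All loci of an interval there and of another on chromosome 4 were examined, whatever their description. Both intervals were set by locus number as diterpenoid clusters. On chromosome 2, from Os02g0568000 to Os02g0572000, the table held 20 loci, 6 of them members. Their summed FPKM was 87.0 and 97.9 in the NT libraries and 15.5 to 33.3 in the 8 line libraries. Of 11 tested loci there that were not members, 7, 7, 6 and 8 were down-regulated in OsNAC5, OsNAC6, OsNAC9 and OsNAC10, against 2.78%, 7.07%, 4.91% and 9.86% of all tested loci. Among them were cytochrome P450 loci, the class that decorates diterpene skeletons. Os02g0569000 had 3.74 and 4.51 FPKM in NT, while the lines had 0.258 to 1.02, with log2 differences of -1.94, -1.84, -1.49 and -1.83 (SE 0.133). Os02g0569900, another P450 locus, had 10.2 FPKM in both NT libraries and 0.883 and 0.981 in OsNAC10, and its differences ran from -0.81 in OsNAC6 to -2.54 in OsNAC10 (SE 0.201). Its calls in OsNAC5, OsNAC6 and OsNAC9 did not hold when either NT library was left out, where the adjusted p ranged from 0.0713 to 0.104, nor without either OsNAC5 library in OsNAC5 (0.0665 and 0.101) or without OsNAC9 replicate 1 in OsNAC9 (0.0691). In OsNAC6 the difference was -0.48, under 1.5 fold, without OsNAC6 replicate 2, and the call was also lost without the filter on zeros (adjusted p 0.0529) and with the OsNAC6 and NT libraries alone (0.0892).

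Among and beside the synthase loci lay loci described only as hypothetical proteins, and 3 of those tested, Os02g0570800, Os02g0571000 and Os02g0572000, were down-regulated in all 4 lines. Os02g0570800 had 5.50 and 6.16 FPKM in NT and 0.225 to 1.00 in the lines, with differences of -2.44, -2.34, -1.94 and -1.93. It was not stated whether fragments were counted by strand, so reads of overlapping loci on opposite strands cannot be told apart. The interval was not lowered throughout. Os02g0570300, a hypothetical gene next to Os02g0570400, had 6.17 and 6.25 FPKM in NT and 5.55 to 7.49 in the lines and was not called, and Os02g0568600 was up-regulated in OsNAC6, OsNAC9 and OsNAC10 from at most 0.518 FPKM in NT. Apart from Os02g0570800, the loci with hypothetical descriptions were chosen after those values were seen.

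On chromosome 4 the interval ran from Os04g0177500 to Os04g0180500 and held 10 loci, 9 of them not members. All 10 summed to 159 and 174 FPKM in NT, to 84.9 to 103 in OsNAC5, OsNAC6 and OsNAC9, and to 39.2 and 43.4 in OsNAC10. Of 7 tested loci that were not members, 4 were down-regulated in each of OsNAC5, OsNAC6 and OsNAC9 (2.78%, 7.07% and 4.91% of all tested loci) and 6 in OsNAC10 (9.86%). Os04g0179700, the syn-pimara-7,15-diene synthase that acts directly after syn-copalyl diphosphate synthase, had 10.5 and 11.6 FPKM in NT, against 3.66 and 3.94 for OsNAC5, 2.58 and 3.23 for OsNAC6, 3.64 and 2.90 for OsNAC9 and 1.08 and 1.26 for OsNAC10. Its log2 differences were -1.33, -1.63, -1.50 and -2.47 (SE 0.134), where those of Os04g0178300 were -1.09, -1.38, -1.15 and -2.49.

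The P450 loci Os04g0178400 (similar to CYP99A1) and Os04g0180400 (similar to P450 99A2) were down-regulated in all 4 lines, with differences of -0.93 to -1.75 and of -0.89 to -1.86. So was the hypothetical Os04g0180500, from 25.5 and 27.8 FPKM in NT to 2.43 and 3.15 in OsNAC10 (log2 difference -2.87, SE 0.121). Os04g0179200, similar to a secoisolariciresinol dehydrogenase, had 28.2 and 31.6 FPKM in NT, 14.1 to 26.1 in OsNAC5, OsNAC6 and OsNAC9, and 4.89 and 6.40 in OsNAC10. Its difference of -2.22 (SE 0.246, adjusted p 0.000463) was called in OsNAC10, as was that of -1.49 for Os04g0179100, and neither was called in the other lines. Both were chosen after their values were seen. Of the 8 tested loci, 7 were lower in OsNAC10 than in OsNAC5, 6 than in OsNAC6 and 7 than in OsNAC9. The shares over all tested loci were 5.74%, 2.82% and 5.47%. Between the other 3 lines 0 were called by limma, where without adjustment p was under 0.05 for 1 in OsNAC6 against OsNAC5, 1 in OsNAC9 against OsNAC5 and 3 in OsNAC9 against OsNAC6. On chromosome 2 the counts lower in OsNAC10 were 3, 3 and 4 of 14 loci, against the same shares. Between the other lines, Os02g0571100 was called there, higher in OsNAC9 than in OsNAC5 and OsNAC6.

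**Figure D3:**
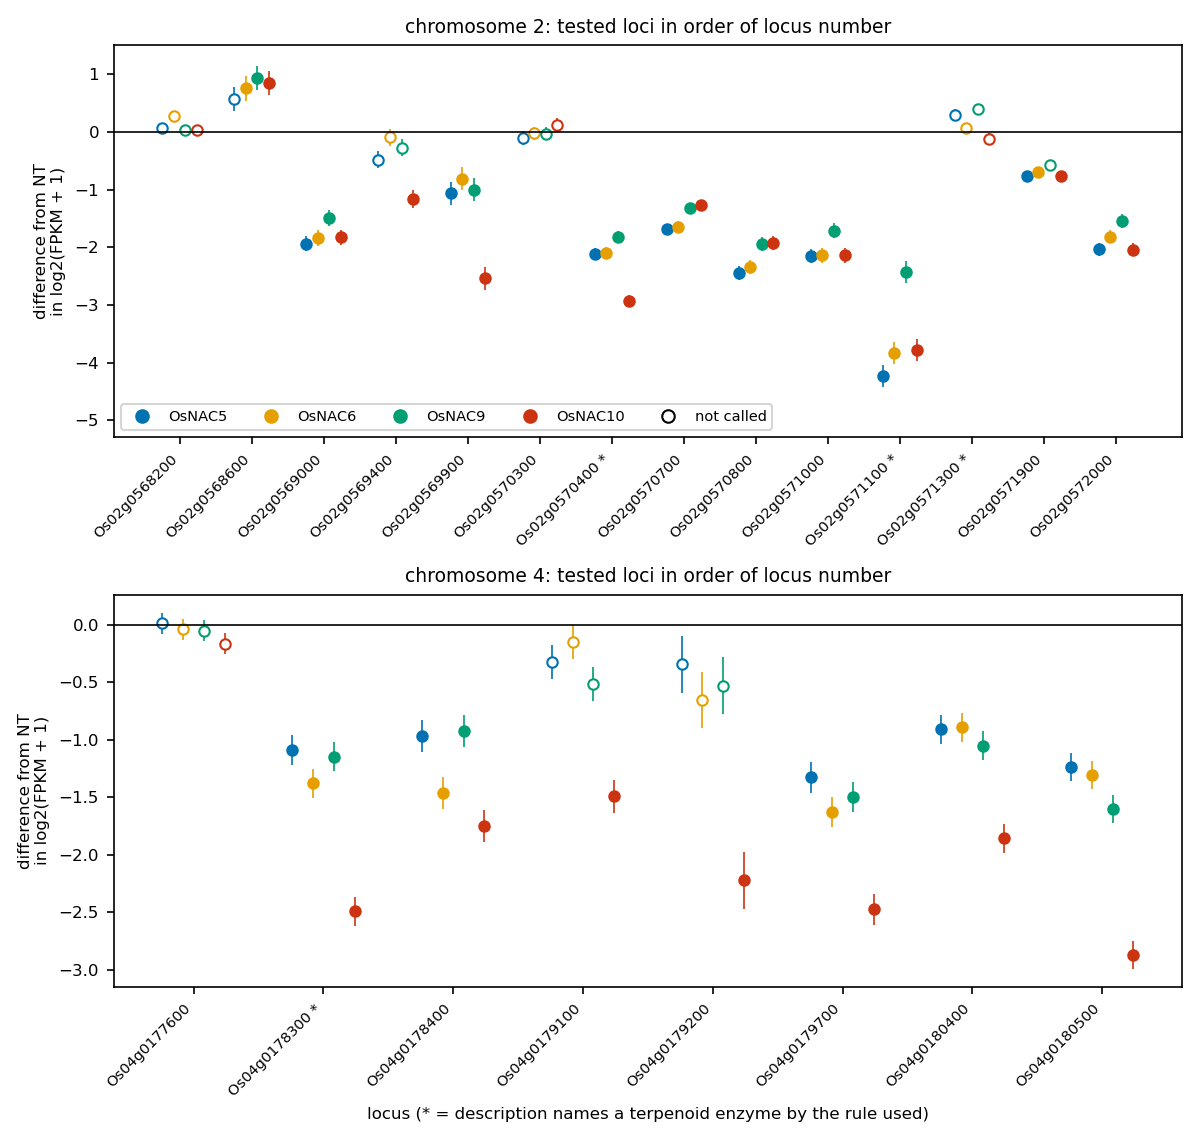
Difference from NT in log2(FPKM + 1) (points, with SE as bars) of the tested loci in locus order, for 14 loci on chromosome 2 and 8 on chromosome 4; filled points are called and asterisks mark the members. On chromosome 4 the OsNAC10 points lie below those of the other lines, down to -2.87. On chromosome 2 OsNAC10 was called lower than each other line at Os02g0569400, Os02g0569900 and Os02g0570400. At Os02g0571300 and Os02g0572000 its points are also the lowest, by less than 1.5 fold, and at Os02g0571100 OsNAC9 lies above the other lines.

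The triterpene and sterol loci held the most abundant members and few calls. Of 13 tested, 0 were called in OsNAC5 and 0 in OsNAC6 (limma; without adjustment, p was under 0.05 for 1 in OsNAC5 and 4 in OsNAC6, counting both directions), 1 was down-regulated in OsNAC9 and 1 up-regulated in OsNAC10. Os07g0206700, cycloartenol-C-24-methyltransferase 1, which adds a methyl group at C-24 of the sterol side chain, had 143 and 139 FPKM in NT, while the lines had 143 to 190. Its difference was widest in OsNAC10, at 0.40 (95% interval 0.16 to 0.64, adjusted p 0.0217), short of 1.5 fold. Os03g0805100, similar to squalene synthase, had 63.3 and 59.5 FPKM in NT, while the lines had 50.1 to 70.3, and its differences lay between -0.25 in OsNAC9 and 0.19 in OsNAC10. A further squalene synthase locus, Os07g0200700, had 14.7 and 14.6 FPKM in NT, while the lines had 11.6 to 14.7.

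Os02g0139700, similar to cycloartenol synthase, the enzyme that closes the sterol ring system, had 37.7 and 37.3 FPKM in NT, while the lines had 33.4 to 40.1. Its 95% intervals together ran from -0.32 to 0.25 on the log2 scale, so a change of 1.5 fold lay outside them. Os11g0562100, a squalene cyclase domain protein, had 24.3 and 25.7 FPKM in NT, 19.2 and 19.5 in OsNAC5, and 24.1 to 31.7 in the other lines. No line differed from NT by 1.5 fold, and OsNAC10 was higher than OsNAC5 by 0.66 (adjusted p 0.00248).

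Both called sterol loci were called in 1 line each. Os03g0231700, similar to squalene monooxygenase, had 12.3 FPKM in both NT libraries, against 11.6 and 11.4 for OsNAC5, 13.2 and 11.7 for OsNAC6, 10.9 and 10.5 for OsNAC9 and 19.9 and 18.5 for OsNAC10. The OsNAC10 libraries lay above all others, with a difference from NT of 0.60 (SE 0.0885, adjusted p 0.00186), just past 1.5 fold. Without OsNAC10 replicate 1 it was 0.55 and no longer called. OsNAC10 was higher than OsNAC9 by 0.78. Os11g0286800 on chromosome 11, a squalene cyclase domain locus with transcripts similar to cycloartenol synthase, had 3.15 and 2.85 FPKM in NT, against 2.25 and 2.56 for OsNAC5, 1.96 and 2.50 for OsNAC6, 0.673 and 0.513 for OsNAC9 and 4.16 and 4.73 for OsNAC10. It was down-regulated in OsNAC9 (-1.33, SE 0.125, adjusted p 0.000245). In OsNAC10 the difference of 0.44 was not called, though 1 transcript tested by itself was (0.71), and OsNAC10 was higher than OsNAC9 by 1.77.

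**Figure D4:**
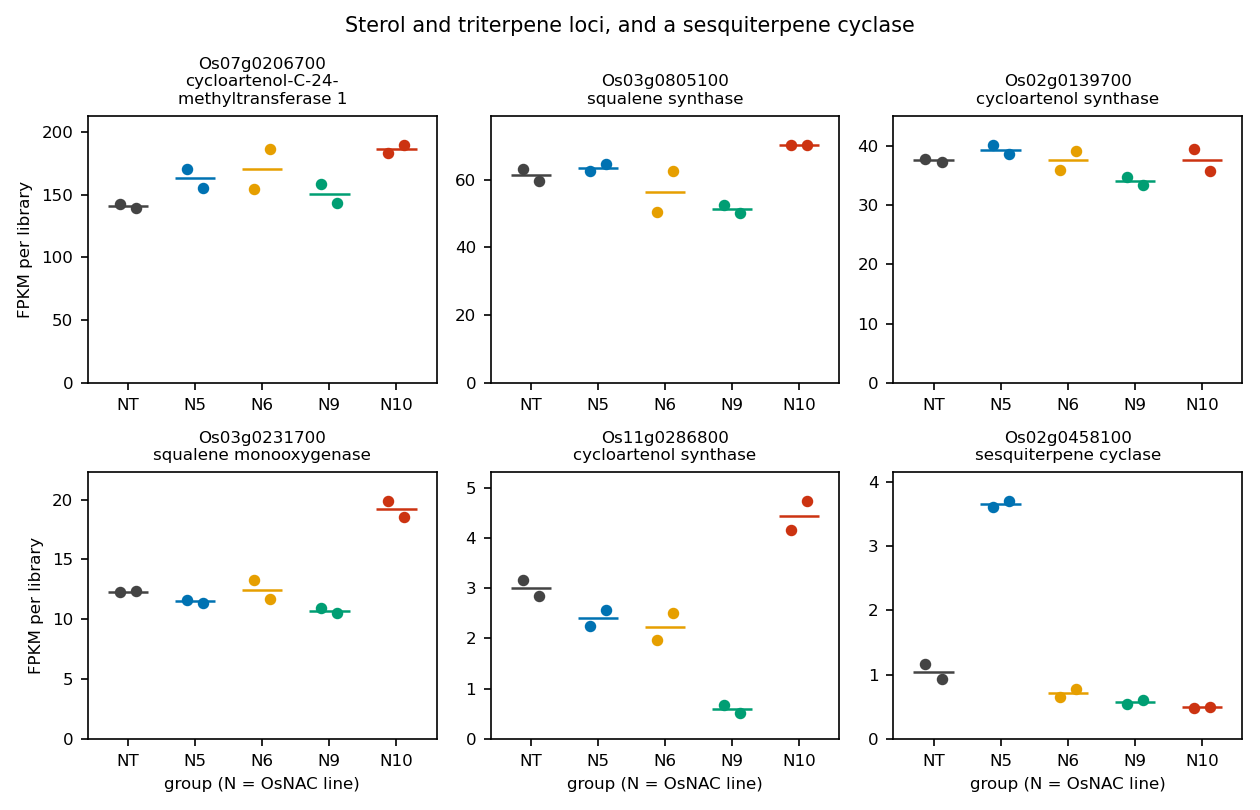
FPKM per library (points) and group mean (bars) of 5 sterol and triterpene loci and of the sesquiterpene cyclase Os02g0458100, on linear axes from 0, with lines named N5 to N10 for OsNAC5 to OsNAC10. In the top row all libraries are of similar level; below, OsNAC10 stands highest for Os03g0231700 (19.9 and 18.5), OsNAC9 lowest for Os11g0286800 (0.673 and 0.513), and OsNAC5 highest for Os02g0458100 (3.61 and 3.70).

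The routes that supply the branches were read from description words. Of 12 tested loci with mevalonate words, 0, 1, 2 and 1 were down-regulated in OsNAC5, OsNAC6, OsNAC9 and OsNAC10, and 0 were up-regulated. Without adjustment, limma gave p under 0.05 for 1 lower locus in OsNAC5 and for 2 higher loci in OsNAC10. No description among the 12 named hydroxymethylglutaryl-CoA reductase, an enzyme of this route, so the counts do not cover all of it. The words also took in loci described as hydroxymethylglutaryl-CoA lyase, which is not an enzyme of this route, so the counts are not of the route alone. Such a lyase locus, Os12g0134000, had a mean of 4.54 FPKM in NT and 3.92, 1.59, 2.68 and 2.19 in the same order of lines. It was chosen after its values were seen. A further list was found by words for isopentenyl and prenyl diphosphates, the direct precursors. Of its 21 tested loci, 0 were called in any line. Without adjustment, limma gave p under 0.05 for 3, 2, 4 and 9 loci in the same order of lines. All 28 loci of the list summed to 290 and 283 FPKM in NT and to between 269 and 301 in the lines. Its words also took in loci that do not make these precursors. Among them were Os01g0866300, described as a VAMP-like protein, and Os01g0269100, described as similar to a Rab escort protein. Both are named for their descriptions. The counts and the sum of this list are therefore not of precursor synthesis alone.

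The 9 loci of the plastid MEP route split. Os07g0190000, similar to 1-deoxy-D-xylulose 5-phosphate synthase 2, the entry enzyme of the route, had 9.18 and 11.0 FPKM in NT, against 3.72 and 4.20 for OsNAC5, 4.46 and 3.30 for OsNAC6, 3.29 and 4.43 for OsNAC9 and 1.69 and 1.68 for OsNAC10. It was down-regulated in all 4 lines (-1.16, -1.19, -1.20 and -2.05, SE 0.165). A more abundant locus for the same step, Os06g0142900, had 45.6 and 47.0 FPKM in NT and 48.1 to 62.0 in the lines, and was not called. Os03g0732000, similar to 4-hydroxy-3-methylbut-2-enyl diphosphate reductase, the last enzyme of the route, went up in all 4 lines, from 8.27 and 7.84 FPKM in NT into a range of 15.6 to 22.6 FPKM (0.90, 1.09, 1.13 and 1.32, SE 0.108). Os01g0802100 was down-regulated in OsNAC6 and Os02g0680600 in OsNAC10. The last 2 and Os06g0142900 were chosen after their values were seen.

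Some loci whose descriptions name alcohol dehydrogenase or pyruvate decarboxylase also differed between the groups. These words are not limited to enzymes of fermentation, so the counts, medians and sums of the list do not measure a low oxygen state. Of 58 tested loci described as alcohol dehydrogenase or pyruvate decarboxylase, 6, 9, 6 and 10 were down-regulated and 1, 3, 2 and 2 up-regulated in OsNAC5, OsNAC6, OsNAC9 and OsNAC10, against 2.78%, 7.07%, 4.91% and 9.86% of all tested loci down-regulated and 1.78%, 5.32%, 4.43% and 4.61% up-regulated. The list's median log2 differences were 0.04, -0.06, -0.03 and 0.04. Its sum was 2292 and 2377 FPKM in NT and 1435 to 1901 in the lines. Os11g0210300, alcohol dehydrogenase 1, had 313 and 329 FPKM in NT, 228 and 197 for OsNAC5, 171 and 148 for OsNAC6, 277 and 282 for OsNAC9 and 58.1 in both OsNAC10 libraries. It was chosen after its values were seen. Os05g0469600, similar to pyruvate decarboxylase, had 54.7 and 53.3 FPKM in NT and at most 1.92 FPKM in the lines. Os05g0469800, Os11g0210500 and Os12g0227400 of this list were also called in 1 direction in all 4 lines. Their smallest log2 differences were 3.98, 0.83 and 0.67 in size. The OsNAC5 call of Os12g0227400 did not hold when any NT or OsNAC5 library was left out, where the difference was -0.70 to -0.65. The part of low oxygen in the terpenoid results was not tested.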

How the data were processed

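RNA-Seq reads of 10 rice root libraries had been trimmed, freed of PCR duplicates and mapped with TopHat to IRGSP 1.0 with the RAP-DB annotation by the authors, who deposited FPKM per transcript. That Cufflinks made these values is assumed, and program versions are not given in the sources used here. A second table held the same values. FPKM were summed per locus. Loci above 0 FPKM in all 10 libraries were tested on log2(FPKM + 1) with limma 3.58.1 in R 4.3.3 (1 fit of 5 groups, moderated with a trend, two-sided), with Benjamini-Hochberg adjustment over 29915 loci. Calls needed adjusted p under 0.05 and 1.5 fold. Confidence intervals are at the 95% level of that fit. The fit was tested on simulated data.

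Loci were named if called in a line with a mean of at least 1 FPKM there or in NT, if among the 6 most abundant members, or if excluded for zeros with a group mean of at least 1 FPKM. Pathway loci were named if called in 1 direction in all 4 lines at 1 FPKM or more, at most 4 per list. Exceptions are marked, and members named outside the rule were added after their values were seen. Members and lists were chosen with earlier results of these data known. Groups and replicate numbers came from sample titles. Chromosomes are those encoded in the RAP identifiers. Of 39387 RefSeq genes (assembly ASM3414082v1), 0 could be matched to a member by identifier, so no coordinates or sequences are given. Replicates were described as biological, and p-values measure the spread between these libraries. Alternatives varied the pseudocount, filter, normalization, trend, fold threshold, libraries, locus sums and replicate block.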

Additional observations from a re-analysis of the deposited data

Results flagged for a closer look

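For 8 of the members named by rule, a pair of lines differed by 1.5 fold or more with adjusted p under 0.05 in limma's line against line test. The widest of 6 line pairs is given. All figures are log2(FPKM + 1) differences with p adjusted over all tested loci. In the terpenoid synthase domain locus Os02g0571100, OsNAC9 was above OsNAC5 by 1.82 (adjusted p 0.00141). In the ent-kaurene synthase 1A locus Os02g0570400, OsNAC10 against OsNAC9 gave -1.11 (0.000322). In the ent-kaurene oxidase 1 locus Os06g0569500, the same pair gave -1.49 (0.000101). In the syn-copalyl diphosphate synthase locus Os04g0178300, OsNAC10 against OsNAC5 gave -1.40 (0.000369). In the sesquiterpene cyclase locus Os02g0458100, that pair gave -1.64 (2.39e-05). In the squalene cyclase domain locus Os11g0286800, OsNAC10 was above OsNAC9 by 1.77 (6.53e-05). In the squalene monooxygenase locus Os03g0231700, OsNAC10 was above OsNAC9 by 0.78 (0.000829). In Os11g0562100, OsNAC10 was above OsNAC5 by 0.66 (0.00248). In each of the 8, both libraries of one line lay above both of the other. OsNAC10 also differed from OsNAC9 in Os01g0248701 (0.30, adjusted p 0.0141), Os06g0570566 (0.46, 0.0321) and Os03g0805100 (0.45, 0.021), short of 1.5 fold. With a pseudocount of 0.1, Os01g0248701 (1.52) and Os06g0570566 (1.59) were called for that pair. Among members outside that rule, OsNAC10 also stood below OsNAC9 in the terpene synthase family locus Os03g0361700 (-0.95) and above OsNAC5 in the ent-kaurene oxidase 1 locus Os06g0569900 (0.63). Choosing the widest of 6 pairs favours large values.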

How the results depend on the processing

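The 7 members down-regulated in all 4 lines kept that direction under every alternative that tested them. When loci with zeros were kept but those averaging under 1 FPKM removed, the weak members drop out by construction and 4, 4, 5 and 4 members were down-regulated in OsNAC5, OsNAC6, OsNAC9 and OsNAC10. With a pseudocount of 0.1, which weights weak loci more, 13 were down-regulated in OsNAC10, and 2 up-regulated in each of OsNAC9 and OsNAC10. A 2 fold threshold left 0 up-regulated in OsNAC10, and transcripts tested one by one gave 2 there. Leaving out each library in turn gave 7 to 9, 7 to 9, 9 to 11 and 7 to 8 down-regulated members in OsNAC5, OsNAC6, OsNAC9 and OsNAC10. It gave 1, 0 to 1, 0 and 0 to 1 up-regulated members. Signs of differences near 0 turned for Os07g0206700 in OsNAC9 with quantile normalization (-0.00279) and for Os02g0139700 with median centring (0.0436 in OsNAC6, 0.0855 in OsNAC10). Without 1 library they also turned for Os02g0139700 (range -0.0622 to 0.0594 in OsNAC6 and -0.0695 to 0.0670 in OsNAC10) and Os03g0231700 (-0.0728 to 0.0974), Os03g0805100 (-0.279 to 0.0244) and Os11g0562100 (-0.0477 to 0.168) in OsNAC6, and for Os07g0200700 in OsNAC5 (-0.0654 to 0.00498). Library weights by group, added after the data were seen, changed no count by over 1.5 times.

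The deviations of same-numbered replicates had correlations from -0.52 (OsNAC6 with OsNAC9) to 0.33 (OsNAC5 with OsNAC9) over group pairs. The correlations differ in sign, so they cannot tell whether samples of the same number shared a batch. With a replicate block the counts of down-regulated members were 9, 8, 10 and 7, and it changed no call. Depth is unknown, which limits every locus under 1 FPKM, and 2 libraries per group limit all errors.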

Other observations

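Loci downstream of the sterol branch point, found by sterol words in their descriptions, gave 1, 3, 1 and 5 up-regulated and 0, 1, 1 and 1 down-regulated of 28 tested in OsNAC5, OsNAC6, OsNAC9 and OsNAC10 (limma; without adjustment, p was under 0.05 for 3 lower loci in OsNAC5). Over all tested loci, 1.78%, 5.32%, 4.43% and 4.61% were up-regulated and 2.78%, 7.07%, 4.91% and 9.86% down-regulated. Os01g0134500, similar to delta-7-sterol-C5(6)-desaturase, had 55.5 and 54.9 FPKM in NT, against 88.5 and 105 for OsNAC5, 124 and 107 for OsNAC6, 132 and 140 for OsNAC9 and 92.1 and 84.8 for OsNAC10. It was up-regulated in all 4 lines (0.80, 1.05, 1.29 and 0.67, SE 0.105), with all 8 line libraries above both NT libraries. With quantile normalization the OsNAC10 difference was 0.58, short of 1.5 fold. The word list also takes in loci that do not make sterols, such as the oxysterol-binding Os03g0274000, the down-regulated locus of the list, chosen after its values were seen.

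Of 21 tested loci with gibberellin words, 0, 3, 4 and 3 were up-regulated and 1, 4, 3 and 4 down-regulated in OsNAC5, OsNAC6, OsNAC9 and OsNAC10 (limma; without adjustment, p was under 0.05 for 3 higher loci in OsNAC5), to be read against the same shares over all loci. No locus of this list was called in 1 direction in all 4 lines.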
